A study of Mus musculus with 59 samples.

Results

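The effect of IP118/PY115 in the arcuate nucleus of the hypothalamus (ARC) was set against its effect in the nucleus of the solitary tract (NTS) of the brainstem. The comparison is a difference of differences: the log2 ratio of treated over vehicle libraries in ARC minus the same ratio in NTS, so a negative value means that the effect was higher in NTS. It uses every library of the 2 regions, 39 of the 59 in the series. These are 9 vehicle and 10 treated libraries from ARC and 10 vehicle and 10 treated libraries from NTS. C57BL/6 mice received IP118/PY115 or vehicle by intraperitoneal injection, and brains were collected 4 h later. Frozen sections of 10 µm were cut, laser capture took 4 mm2 of tissue per region and mouse, and libraries were made from polyA RNA with a stranded kit. The title of the series speaks of a co-agonist of receptors for peptide YY (PYY) and glucagon-like peptide 1 (GLP-1) in obese-diabetic mice. The sample labels give neither dose nor diet nor age, and they do not say what IP118 and PY115 are each made of.

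ARC and NTS both take part in the control of feeding by gut hormones. ARC holds the hunger neurons that make Agrp and Npy and the satiety neurons that make Pomc, while NTS is where sensory fibres of the vagus nerve from the gut end. Neurons that fire strongly switch on immediate early genes such as Fos, Fosb, Junb, Egr4 and Nr4a1 through calcium, cAMP and MAP kinase signals that act on transcription factors already present in the cell, and later genes such as Nptx2 follow. These transcripts are a common readout of which brain areas a drug activates.

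Levels are CPM, counts scaled to equal library totals after TMM adjustment, and tests are from edgeR with Benjamini-Hochberg adjustment over all genes tested, called at an adjusted p under 0.05. Library totals were 4546257 to 14476523 counts in ARC and 6677086 to 28510118 counts in NTS, and vehicle ARC library 5 was the only one under 0.5 of the median total. In vehicle mice 13 of 13 ARC markers had the higher mean in ARC and 14 of 14 NTS markers in NTS. No label names the mouse of a library. Libraries of the 2 regions came from shared mice, p-values take them as independent, and they measure the spread between libraries only. In captured bulk tissue, fewer cells of a type and less RNA per cell cannot be told apart.

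The library numbered 1 in deposit order in each of the 4 groups stood on the side of the other treatment. A score of 22 glucocorticoid-responsive genes that holds no activity gene, the mean of log2(CPM + 0.5), was 5.01 in vehicle ARC library 1 and 3.89 to 4.51 in the other vehicle ARC libraries. It was 4.16 in treated ARC library 1 and 4.82 to 5.23 in the other treated ARC libraries. In NTS it was 5.57 in vehicle library 1 against 4.58 to 5.01 in the others, and 4.54 in treated library 1 against 5.30 to 5.88. All 39 libraries were kept under their labels, and the main results are given with them and again without these 4. The 4 were picked by their outcome, so p-values without them are too small and are a description of the other 35 libraries. Levels, ranges and fold changes of single genes below are over those 35 unless all libraries are named, and levels of all 39 are in the plots. For every gene said below to show no overlap, treated and vehicle libraries did overlap when all 39 were kept. A lack of overlap thus depends on leaving out the 4 and is a description only. How many of all genes show no overlap was not counted.

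**Figure D1:**
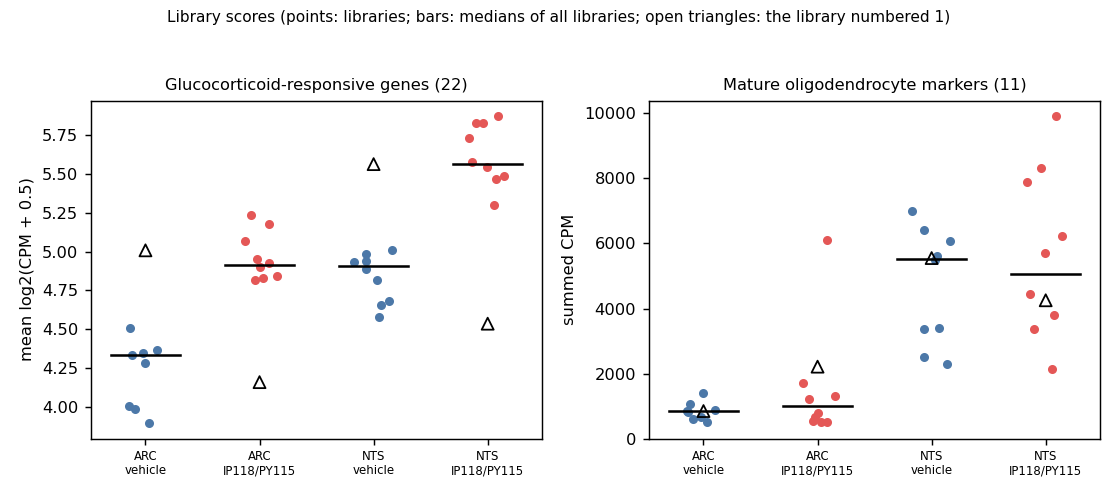
Scores per library in the 4 groups: left, mean log2(CPM + 0.5) of 22 glucocorticoid-responsive genes; right, summed CPM of 11 mature oligodendrocyte markers. Points are libraries, bars medians of all libraries and open triangles the library numbered 1, which lies on the side of the other treatment in each group on the left; on the right, treated ARC library 2 stands at 6119 CPM.

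With all 39 libraries, 0 of 14155 genes (0%) differed in the treatment effect between ARC and NTS, with 527 at an unadjusted p under 0.05 and a smallest adjusted p of 0.317. DESeq2 called 4 genes on the same counts, Galnt15, Prss35, Sertm1 and Slc30a3, and limma-voom with quality weights called 0. Within ARC 10 genes passed (0.0706%), all higher with IP118/PY115, and within NTS 33 passed (0.233%), of which 32 rose (0.226%) and 1 fell (0.00706%). No gene passed in both regions. Without the 4 libraries numbered 1, 29 of 14157 genes (0.205%) differed: 18 had the higher effect in NTS (0.127%) and 11 in ARC (0.0777%). On those 35 libraries 163 genes passed in ARC (1.15%) and 164 in NTS (1.16%), of which 116 (0.819%) and 138 (0.975%) rose while 47 (0.332%) and 26 (0.184%) fell. Of these genes 40 passed in both, 24.5% of the ARC genes and 24.4% of the NTS genes, all 40 with the same sign. Each of the 29 had the same sign of the difference with all 39 libraries. As the 29 were picked on 35 of these, that agreement was largely built in.

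The 29 genes fell into few patterns. Of the 18 with the higher effect in NTS, 14 rose in NTS and did not pass in ARC, Fosl2 rose in both, and Arid5b, Nr0b1 and Phlda1 fell in ARC and did not pass in NTS. Of the 11 with the higher effect in ARC, 9 rose in ARC and did not pass in NTS, Fam43a rose in both, and Prss35 passed in neither region alone. The NTS side held immediate early transcription factors, while the ARC side held none from the activity lists.

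**Figure D2:**
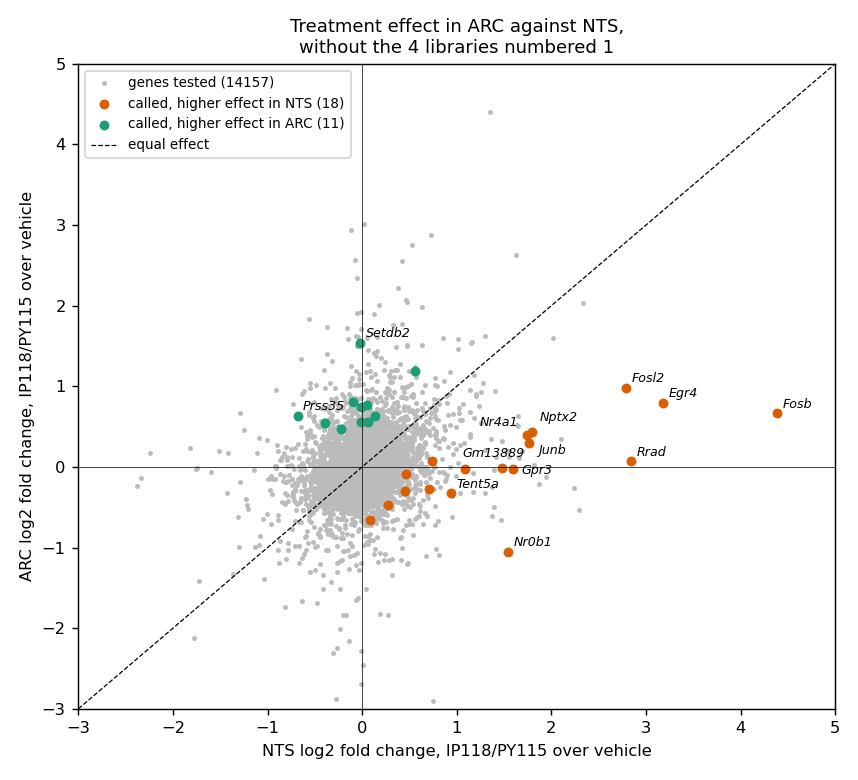
Log2 fold change of IP118/PY115 over vehicle in NTS (x axis) and in ARC (y axis) for the 14157 genes tested without the 4 libraries numbered 1, with 7 genes outside the plotted range. Orange points are the 18 genes called with the higher effect in NTS, green points the 11 with the higher effect in ARC, and the dashed line marks equal effects; Fosb, Egr4, Fosl2 and Rrad lie far to the right.

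Immediate early transcription factors had the higher effect in NTS. Of the 25 listed 24 were tested, and 22 of 24 had the higher effect in NTS with all libraries, when 7131 of all 14155 genes did. Their median difference was -0.47, against -0.000857 over all genes. None passed with all libraries. Without the 4 libraries numbered 1 the count was again 22 of 24, the median difference -0.63, and 5 passed: Fosb, Fosl2, Junb, Egr4 and Nr4a1. The median effect of the list was then 1.05 in NTS and 0.34 in ARC. In NTS 12 of 24 rose, against 138 of all 14157 genes. In ARC 2 rose and 1, Klf6, fell, against 116 and 47 of all 14157 genes. With all libraries 6 of 24 rose in NTS and 0 of 24 in ARC, against 32 and 10 of all 14155 genes.

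Fosb, an AP-1 partner of the Jun proteins whose transcript is low in resting brain, showed the largest difference of the 29 (Ensembl ENSMUSG00000003545, chr7:19302696-19310051, minus strand, GRCm38). In the 9 vehicle NTS libraries other than library 1 it ran from 0.141 CPM over a median of 1.68 to 2.71. In the 9 treated NTS libraries it ran from 19 over 30.3 to 49.05, so that the 2 groups did not overlap. The 8 vehicle ARC libraries ran from 0.805 over 3.59 to 6.86 CPM and the 9 treated ones from 3.14 over 4.69 to 12.95, which overlapped. Library 1 read 39.86 CPM in vehicle NTS and 0.862 in treated NTS. The difference was -1.97 ± 0.87 (SE; adjusted p = 1) with all libraries and -3.72 ± 0.48 (adjusted p = 1.47e-05) without those 4.

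Fosl2, a member of the Fos family, rose in both regions and more in NTS. Its NTS levels went from 1.96 to 9.51 CPM (median 5.37) with vehicle to 25.8 to 55.5 (median 42.5) when treated. In ARC they went from 12.4 to 22.8 CPM (median 20.1) to 14.2 to 53.6 (median 38.05). Treated medians thus lay close together, while the vehicle level was higher in ARC. The log2 fold change was 2.79 ± 0.22 in NTS and 0.98 ± 0.21 in ARC (adjusted p = 9.2e-11 and 0.00805), a difference of -1.81 ± 0.30 (adjusted p = 0.0014); with all libraries it was -1.10 ± 0.52.

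Junb, the Jun protein that pairs with Fos proteins, rose in NTS and did not pass in ARC. Vehicle NTS libraries stood at 14.6 to 27.5 CPM (median 21.2) and treated ones at 50.7 to 83.5 (median 76.6), without overlap. In ARC the vehicle libraries stood at 31.3 to 68.7 CPM (median 45.1) and the treated at 21.04 to 89.9 (median 55.04), overlapping throughout. The difference was -1.47 ± 0.26 (adjusted p = 0.00368), and -1.12 ± 0.38 with all libraries.

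Egr4, a zinc finger factor of the Egr family, stood at 0 to 1.61 CPM (median 1.01) in vehicle NTS and at 4.81 to 16.4 (median 8.02) in treated NTS. Its ARC levels were 0.659 to 3.29 CPM (median 1.98) and 0.537 to 7.67 (median 3.43). The difference was -2.38 ± 0.54 (adjusted p = 0.0432), close to the threshold, and -1.73 ± 0.66 with all libraries. Nr4a1, an orphan nuclear receptor induced by cAMP and calcium, stood at 8.49 to 21.3 CPM (median 12.1) in vehicle NTS and at 33.2 to 57.9 (median 40.7) in treated NTS. In ARC it stood at 11 to 24.8 CPM (median 22.1) and 13.5 to 46.1 (median 23.6). The difference was -1.35 ± 0.30 (adjusted p = 0.0343), and -1.09 ± 0.41 with all libraries. For both genes the treated NTS libraries lay above every vehicle NTS library once library 1 was left out.

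Fos, the gene most used as a marker of activated neurons, did not pass for the difference. It stood at 6.99 to 27.1 CPM (median 15.9) in vehicle NTS and at 39.7 to 89.2 (median 70.6) in treated NTS. In ARC it stood at 21.06 to 51.2 CPM (median 32.5) and at 16.3 to 100.7 (median 36.8). It rose in NTS by 2.11 ± 0.31 (adjusted p = 4.89e-05), and the difference was -1.76 ± 0.44 with an adjusted p of 0.0956. Nr4a3, a relative of Nr4a1, was alike: it rose in NTS by 1.48 ± 0.20, and its difference of -1.16 ± 0.29 had an adjusted p of 0.0804. With all libraries the differences of Fos and Nr4a3 were -1.25 ± 0.53 and -0.83 ± 0.34. Fosl1 went from 0 to 0.156 CPM in vehicle NTS to 1.03 to 5.11 in treated NTS, and its difference of -3.11 ± 1.30 did not pass (adjusted p = 0.794). With all libraries Fosl1 rose in NTS too (adjusted p = 0.0191), and its difference was -1.57 ± 1.41.

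Npas4, which answers to calcium entry in neurons, and the gene Arc (activity-regulated cytoskeleton-associated protein, not the nucleus ARC) did not pass in either region. Npas4 medians in NTS were 2.99 CPM with vehicle and 4.59 when treated, and in ARC 4.00 and 3.86. Arc medians in NTS were 12.7 and 21.3 CPM, and in ARC 11.3 and 10.8. The differences were -0.79 ± 0.37 and -0.54 ± 0.40, and -0.65 ± 0.40 and -0.45 ± 0.38 with all libraries. Klf6, a zinc finger factor of the same list, fell in ARC by 0.38 on the log2 scale (adjusted p = 0.0108), where its median went from 55.1 to 44.5 CPM, and was 46.1 and 45.3 CPM in NTS; its difference of -0.48 ± 0.12 had an adjusted p of 0.0804. With all libraries Klf6 did not pass in ARC (-0.29, adjusted p = 0.243), and its difference was -0.36 ± 0.13.

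**Figure D3:**
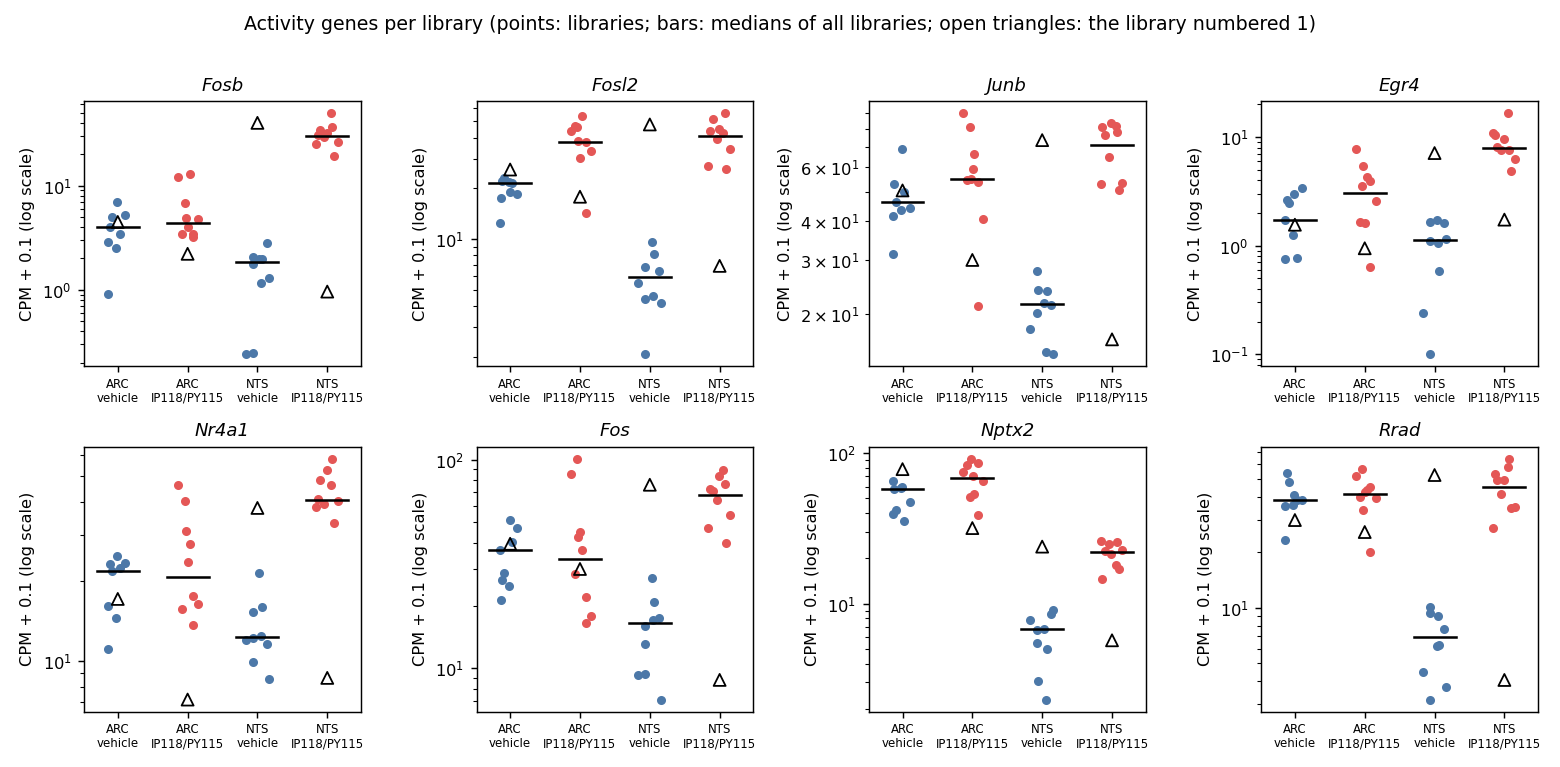
Levels (CPM + 0.1, log scale) of 8 activity genes in each library of the 4 groups, with bars at the medians of all libraries. With the open triangles (library 1) of all 4 groups set aside, the treated NTS points of all 8 genes, Fos included, lie above the vehicle NTS points, while the ARC groups overlap. All but Fos were called for the difference on these same 35 libraries, so their separation is partly built in. Npas4, the gene Arc, Klf6 and Ptgs2 are not shown, and their NTS groups overlapped without library 1.

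The stretch of 250 bases before the transcription start is shown for the 5 immediate early factors called with the higher effect in NTS, because cAMP and calcium signals reach such genes through the CRE, the site that CREB binds. Sequences are those of RefSeq (GRCm38.p6), written 5′ to 3′ on the gene's strand, with the CRE core TGACG or its reverse complement CGTCA in capitals. They are Fosb at chr7:19310046-19310295 (minus), Fosl2 at chr5:32136222-32136471 (plus), Egr4 at chr6:85513590-85513839 (minus), Junb at chr8:84978749-84978998 (minus) and Nr4a1 at chr15:101266596-101266845 (plus).
Fosb: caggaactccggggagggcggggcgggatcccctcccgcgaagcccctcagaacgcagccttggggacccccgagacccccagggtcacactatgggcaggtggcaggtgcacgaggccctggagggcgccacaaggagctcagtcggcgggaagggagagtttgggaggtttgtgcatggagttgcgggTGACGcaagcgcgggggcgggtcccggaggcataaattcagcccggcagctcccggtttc
Fosl2: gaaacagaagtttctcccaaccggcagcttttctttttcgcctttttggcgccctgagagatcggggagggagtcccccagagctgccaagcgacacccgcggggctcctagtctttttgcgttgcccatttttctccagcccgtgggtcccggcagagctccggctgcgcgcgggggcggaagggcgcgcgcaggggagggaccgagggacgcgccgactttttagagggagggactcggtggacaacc
Egr4: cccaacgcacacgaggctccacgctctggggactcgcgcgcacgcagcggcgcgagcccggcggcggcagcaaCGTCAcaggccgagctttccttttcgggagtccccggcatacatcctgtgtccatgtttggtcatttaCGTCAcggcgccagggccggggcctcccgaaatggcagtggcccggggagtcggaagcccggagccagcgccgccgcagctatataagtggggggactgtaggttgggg
Junb: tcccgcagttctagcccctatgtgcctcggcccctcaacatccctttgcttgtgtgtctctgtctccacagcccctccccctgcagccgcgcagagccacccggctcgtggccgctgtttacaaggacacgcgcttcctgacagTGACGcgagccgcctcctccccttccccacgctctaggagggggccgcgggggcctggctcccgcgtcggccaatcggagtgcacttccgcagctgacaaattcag
Nr4a1: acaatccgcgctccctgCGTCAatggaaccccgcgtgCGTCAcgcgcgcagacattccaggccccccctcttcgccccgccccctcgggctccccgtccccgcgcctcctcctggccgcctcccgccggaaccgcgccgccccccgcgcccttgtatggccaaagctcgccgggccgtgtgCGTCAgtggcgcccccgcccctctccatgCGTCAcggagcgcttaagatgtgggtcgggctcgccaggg
The window of Fosb held 1 core, that of Fosl2 0, that of Egr4 2, that of Junb 1 and that of Nr4a1 4. Of the 18 genes with the higher effect in NTS, 13 had a window and 6 of these (46.2%) held the core on either strand. Of the 11 with the higher effect in ARC, 9 had a window and 2 (22.2%) held it. Among all tested genes with a window 29.4% held it, and of all RefSeq promoters 19.8% did. The full CRE, TGACGTCA, and the CArG box bound by serum response factor were held by none of these 13 or 9 genes, and by 2.97% and 1.38% of tested genes. These are matches of letters in a short window and not sites shown to be bound. The CArG box was sought only in its strict form, 6 letters A or T between CC and GG, so near matches were not counted.

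Genes that act after or against the first wave showed the same side. Of 20 late activity genes 19 were tested, and 15 of 19 had the higher effect in NTS with all libraries (median difference -0.13) and 16 of 19 without the 4 libraries (median -0.26), when 7 of the 19 rose in NTS and 0 in ARC, against 138 and 116 of all 14157 genes. With all libraries 2 of the 19 rose in NTS and 0 in ARC, against 32 and 10 of all 14155 genes. Nptx2, a secreted pentraxin that gathers AMPA receptors at synapses, was the 1 member to pass for the difference. Its NTS levels went from 2.2 to 9.03 CPM (median 6.62) to 14.5 to 26.05 (median 22.3), while ARC held 35.1 to 64.8 (median 52.5) and 38.5 to 91.6 (median 70.3). The difference was -1.36 ± 0.26 (adjusted p = 0.00863), and -1.10 ± 0.38 with all libraries. Vgf, a secreted neuropeptide precursor, rose in NTS by 0.58 ± 0.11 and had a difference of -0.57 ± 0.15 (adjusted p = 0.128). With all libraries Vgf did not pass in NTS (0.43, adjusted p = 0.185), and its difference was -0.41 ± 0.17. Ptgs2, the inducible cyclooxygenase, rose in NTS also with all libraries (adjusted p = 0.0381), from a median of 0.479 CPM to 1.86 without library 1; its difference of -2.82 ± 0.83 did not pass (adjusted p = 0.245), nor did that of -2.08 ± 0.80 with all libraries.

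MAP kinase feedback inhibitors, which shut off the ERK signal, leaned the same way. Of the 13, 12 had the higher effect in NTS in both fits, with a median difference of -0.19 with all libraries and -0.30 without the 4, and 6 rose in NTS against 1 in ARC without them, beside the same 138 and 116 of all genes. With all libraries 0 of the 13 rose in either region. Dusp14, a dual-specificity phosphatase, passed for the difference at -0.98 ± 0.17 (adjusted p = 0.00172); with all libraries it was -0.73 ± 0.19. It went from 4.41 to 7.28 CPM (median 6.23) to 8.21 to 12.3 (median 10.1) in NTS, without overlap, and from a median of 16.3 to 13.6 in ARC. Dusp1 rose in NTS by 0.52 ± 0.12, where the groups did not overlap either, and Dusp6 passed in neither region; their differences of -0.52 ± 0.18 and -0.47 ± 0.13 did not pass (adjusted p = 0.543 and 0.196). With all libraries these 2 differences were -0.38 and -0.35.

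Of the 23 genes of the cAMP and CREB pathway, 17 had the higher effect in NTS in both fits, with small median differences of -0.05 and -0.07, and none passed. Sik1, a kinase that CREB induces and that restrains CREB's co-activators, stood at 14.2 to 21.8 CPM (median 18.6) in vehicle NTS and at 22.5 to 38.7 (median 31.4) in treated NTS, without overlap. In ARC its medians were 36.8 and 37.1 CPM. The difference was -0.69 ± 0.17 (adjusted p = 0.0694). Per1, a clock gene that both CREB and the glucocorticoid receptor switch on, rose in both regions, by 0.81 ± 0.08 in NTS and 0.32 ± 0.08 in ARC; the difference of -0.49 ± 0.12 did not pass (adjusted p = 0.0694). With all libraries the differences of Sik1 and Per1 were -0.54 ± 0.26 and -0.35 ± 0.20. Prkar2b, a regulatory subunit of protein kinase A, fell in ARC by 0.31 on the log2 scale and did not pass in NTS or for the difference; with all libraries it did not pass in ARC (adjusted p = 0.0566).

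Rrad, a GTPase-like protein that restrains calcium channels, had the smallest p of the 29 (ENSMUSG00000031880, chr8:104628070-104631327, minus strand). In NTS it went from 3.08 to 9.96 CPM (median 6.22) to 26.8 to 63.9 (median 48.95), without overlap, and in ARC from 23.1 to 53.6 (median 38.2) to 19.97 to 56.03 (median 42.2). The treated NTS libraries of Rrad thus came up to the range that ARC already had with vehicle. The difference was -2.77 ± 0.29 (adjusted p = 6.4e-07), and -1.91 ± 0.53 (adjusted p = 0.826) with all libraries. Gpr3, a receptor that raises cAMP without a ligand, went from 3.05 to 7.72 CPM (median 5.03) to 11.2 to 23.2 (median 13.9) in NTS and stood at medians of 2.31 and 2.49 in ARC. Its difference was -1.61 ± 0.25 (adjusted p = 0.000275), and -1.16 ± 0.37 with all libraries. Its ARC groups overlapped. Gm13889, a gene named only by its model number, had a difference of -1.49 ± 0.18 (adjusted p = 4.81e-06): NTS medians were 17.98 and 50.4 CPM and ARC medians 30.4 and 29.1. With all libraries Gm13889 rose in NTS (adjusted p = 0.0145), and its difference was -1.16 ± 0.29.

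The remaining NTS risers of the 29 were smaller. Tent5a, a poly(A) polymerase, had a difference of -1.26 ± 0.23, with NTS medians of 20.8 and 34.4 CPM and ARC medians of 72.5 and 55.2. Tnfrsf12a, the receptor of the cytokine TWEAK, had -1.11 ± 0.23, with NTS medians of 6.91 and 14.9 CPM and ARC medians of 6.31 and 6.22. For Lzts1, a postsynaptic protein, it was -0.74 ± 0.15. For Net1, a guanine nucleotide exchange factor, it was -0.67 ± 0.13. For Midn, a nuclear protein that carries short-lived transcription factors to the proteasome, it was -0.55 ± 0.10. Midn levels in treated NTS, 58.8 to 76.6 CPM, lay above those of vehicle NTS at 43.5 to 56.7. With all libraries the differences of these 5 genes were smaller: -1.03 for Tent5a, -0.82 for Tnfrsf12a, -0.63 for Lzts1, -0.55 for Net1 and -0.44 for Midn.

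The 3 genes that fell in ARC gave a difference through that region. Phlda1, a pleckstrin-homology protein, went from 13.4 to 20.1 CPM (median 16.1) to 7.56 to 17.2 (median 9.27) in ARC and from a median of 20.4 to 21.7 in NTS. Its difference was -0.75 ± 0.16 (adjusted p = 0.0261). Arid5b, a DNA-binding chromatin factor, went from 50.9 to 72.04 CPM (median 63.8) to 31.6 to 56.04 (median 46.5) in ARC and from a median of 35.1 to 44.5 in NTS, a difference of -0.74 ± 0.13 (adjusted p = 0.00162). In ARC none of the 9 treated libraries lay above the vehicle median of Arid5b. Nr0b1, an orphan nuclear receptor of the steroid axis, went from 6.59 to 17.02 CPM (median 8.19) to 1.48 to 6.95 (median 4.53) in ARC. In NTS it read 0 to 0.288 CPM with vehicle and 0 to 0.601 when treated, so its difference of -2.59 ± 0.60 (adjusted p = 0.0452) sets the fall in ARC against a handful of NTS counts. With all libraries the differences of Phlda1, Arid5b and Nr0b1 were -0.57, -0.57 and -1.92, and none of these genes passed in ARC.

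Genes with the higher effect in ARC formed a smaller and quieter set. Setdb2, a SET-domain protein of the family that methylates histone H3 at lysine 9, led it (ENSMUSG00000071350, chr14:59402009-59440884, minus strand). Vehicle ARC libraries ran from 4.25 over a median of 5.36 to 7.11 CPM and treated ARC libraries from 11.1 over 16.3 to 20.7, without overlap. In NTS it ran from 3.83 over 5.21 to 7.91 and from 4.07 over 5.16 to 6.92 CPM, with the 2 groups on top of each other. Library 1 read 18.2 CPM in vehicle ARC and 6.49 in treated ARC. It rose in ARC by 1.54 ± 0.15 without the 4 libraries and by 1.11 (adjusted p = 0.0205) with all of them, and the difference was 1.56 ± 0.20 (adjusted p = 6.23e-06) and 1.12 ± 0.28 (adjusted p = 0.471).

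Wee1, a kinase that restrains entry into mitosis and a known clock output, rose in ARC from 24.98 to 36.5 CPM (median 31.5) to 44.01 to 63.2 (median 51.9) and had medians of 26.1 and 28.1 CPM in NTS, a difference of 0.71 ± 0.14 (adjusted p = 0.0044). With all libraries Wee1 rose in ARC (adjusted p = 0.0307), and its difference was 0.55 ± 0.16.

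Fam43a rose in both regions and more in ARC, by 1.19 ± 0.09 against 0.56 ± 0.08, a difference of 0.63 ± 0.12 (adjusted p = 0.00368). Its ARC levels went from 23.6 to 33 CPM to 59.5 to 86.6. Agfg2, an ArfGAP-domain protein, and Myrip, which links Rab27 vesicles to myosin, also had treated ARC libraries above every vehicle one. Their ARC medians went from 48.9 to 72.7 and from 46.8 to 70.6 CPM, and their differences were 0.49 ± 0.09 and 0.50 ± 0.11. Fam189a2 had a difference of 0.57 ± 0.13, Spata13, a guanine nucleotide exchange factor, of 0.94 ± 0.20, and Galnt15, an enzyme of O-glycosylation, of 0.90 ± 0.19. Galnt15 stood at medians of 5.23 and 8.33 CPM in ARC and of 101.2 and 92.6 in NTS, so its rise concerned the region where it is low. With all libraries the differences were 0.45 for Fam43a, 0.39 for Agfg2, 0.41 for Myrip, 0.47 for Fam189a2, 0.73 for Spata13 and 0.79 for Galnt15, and none of these 6 passed in ARC.

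Sertm1 and Prss35 had the smallest p of the difference with all 39 libraries, although neither passed in edgeR (adjusted p = 0.317). Sertm1, a small membrane protein, had medians of 24.7 and 34.8 CPM in ARC and of 40.1 and 37.1 in NTS, with a difference of 0.61 ± 0.14 with all libraries and 0.69 ± 0.14 without the 4. Prss35, a serine protease homologue, had medians of 5.85 and 9.23 CPM in ARC and of 4.84 and 3.52 in NTS. Its difference of 1.12 ± 0.26 with all libraries became 1.32 ± 0.26 (adjusted p = 0.0085), while neither region passed alone. Library 1 of Prss35 read 8.3 CPM in vehicle and 6.84 in treated ARC, and 3.08 in vehicle and 4.4 in treated NTS.

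**Figure D4:**
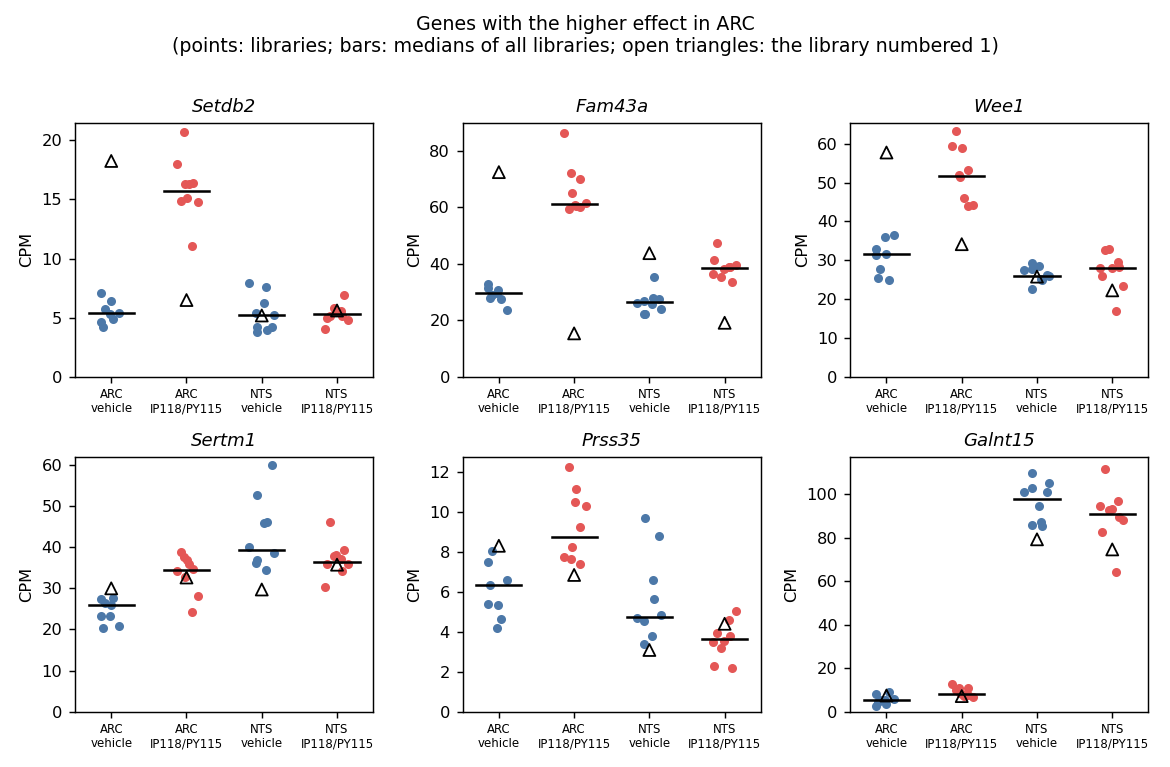
CPM per library of 6 genes with the higher effect in ARC, in the 4 groups. Points are libraries, bars medians of all libraries and open triangles the library numbered 1. With the triangles of all 4 groups set aside, the treated ARC points of Setdb2, Fam43a and Wee1 lie above the vehicle ARC points, while the NTS groups overlap. All 6 genes were called for the difference on these same 35 libraries, so this separation is partly built in.

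Some genes that passed in ARC with all libraries leaned to ARC without passing for the difference, while most clock genes leaned to NTS. Noct, a rhythmic phosphatase of NADPH, rose in ARC by 0.53 ± 0.07, from 49.2 to 64.03 CPM to 67.4 to 87.6 without overlap, and its difference of 0.42 ± 0.10 had an adjusted p of 0.0518. Tle1, a co-repressor, and Stt3b, a subunit of the enzyme that attaches N-glycans, had differences of 0.49 ± 0.12 (adjusted p = 0.07) and 0.33 ± 0.08 (adjusted p = 0.0518). Over all libraries the differences were 0.32 ± 0.11 for Noct, 0.34 ± 0.13 for Tle1 and 0.26 ± 0.08 for Stt3b. Bhlhe40, a clock repressor, fell in ARC by 0.56 on the log2 scale, from a median of 98.7 to 63.6 CPM, and stood at 61.3 and 61.4 in NTS; its difference of -0.66 ± 0.18 had an adjusted p of 0.158. With all libraries Bhlhe40 did not pass in ARC (-0.42, adjusted p = 0.273), and its difference was -0.51 ± 0.19. Of the 19 clock genes tested 14 had the higher effect in NTS in both fits, with median differences of -0.12 and -0.13.

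Glucocorticoid-responsive genes had effects of similar size in both regions. All 25 tested had a positive fold change in ARC and in NTS in both fits. Without the 4 libraries 17 rose in ARC and 21 in NTS, against 116 and 138 of all 14157 genes. The list medians were then 0.65 and 0.63, the median difference was -0.11, and none passed for it. With all libraries 0 rose in ARC and 5 in NTS, against 10 and 32 of all 14155 genes. The 4 libraries stood apart on a score of 22 of these same genes, so the higher counts without them are partly built in. Cdkn1a, the p21 inhibitor of the cell cycle, had medians of 4.46 and 14.6 CPM in ARC and of 12.9 and 49.6 CPM in NTS, without overlap in either region. Its rises of 1.60 ± 0.18 and 2.02 ± 0.16 differed by -0.42 ± 0.24 (adjusted p = 1). Fkbp5, the chaperone that dampens the glucocorticoid receptor, went from 67.5 to 133.8 CPM in ARC and from 32.1 to 50.8 in NTS, a difference of 0.24 ± 0.18. Zbtb16 rose by 1.55 ± 0.21 in ARC and 1.17 ± 0.20 in NTS, and Tsc22d3, the leucine zipper protein GILZ, by 0.58 ± 0.09 and 0.80 ± 0.09. With all libraries the differences were -0.32 for Cdkn1a, 0.14 for Fkbp5, 0.27 for Zbtb16 and -0.17 for Tsc22d3.

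Sharing went beyond that list, to which Mertk, Sgk1 and Plin4 below belong and Cebpd and Arl4d do not. With all libraries 1066 of 14155 genes in ARC and 780 in NTS had an unadjusted p under 0.05. In both regions 159 genes had it, 150 with the same sign and 9 with opposite signs. Without the 4 libraries 1247 of 14157 genes in ARC and 984 in NTS had such a p. In both regions 275 had it, 253 with the same sign and 22 with opposite signs. Among those with the same sign in both were Mertk, a receptor for engulfing dying cells, at 0.79 ± 0.13 in ARC and 0.90 ± 0.12 in NTS, and Cebpd, a transcription factor, at 0.90 ± 0.20 and 0.91 ± 0.18. Sgk1, a kinase that aldosterone and cortisol-like steroids induce, rose by 1.04 ± 0.27 and 1.27 ± 0.25. Plin4, which coats lipid droplets, rose by 2.03 ± 0.53 and 2.33 ± 0.43, and Arl4d by 1.53 ± 0.33 and 1.15 ± 0.26. The difference passed for none of these 5 (adjusted p = 1 without the 4 libraries). They were picked among genes whose difference had an unadjusted p over 0.5 with all libraries, so this was built in. With all libraries Mertk rose in NTS (adjusted p = 0.02), and it did not pass in ARC (adjusted p = 0.114); the other 4 passed in neither region.

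The genes that define the feeding circuits did not pass for the difference in either fit. Of 12 arcuate feeding peptides tested 7 had the higher effect in NTS in both fits, and of 15 NTS peptide and catecholamine genes 10 with all libraries and 11 without the 4. In ARC the medians of Agrp were 567.7 CPM with vehicle and 504.8 when treated, those of Npy 1166 and 1065, those of Pomc 663.3 and 731.3 and those of Cartpt 265.7 and 277.5. None of these 4 passed in ARC. Npy in NTS had medians of 25.98 and 35.5 CPM, and its difference of -0.72 ± 0.22 did not pass (adjusted p = 0.337). Dbh, which makes noradrenaline, had NTS medians of 184.3 and 157.5 CPM and a difference of 0.65 ± 0.31. The differences of Npy and Dbh with all libraries were -0.62 ± 0.21 and 0.42 ± 0.31. Gcg, the GLP-1 precursor, ran from 0 to 47.8 CPM in vehicle NTS and from 1.74 to 138 in treated NTS, a spread that leaves its effect there at 0.75 ± 0.87. Trh, the precursor of thyrotropin-releasing hormone, rose in NTS by 5.03 with all libraries (adjusted p = 0.0401), but treated library 9 read 44.1 CPM and the other treated NTS libraries 0 to 1.63.

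Among the receptors of these peptides 18 were tested and none passed for the difference. Glp1r, the GLP-1 receptor, had medians of 7.37 and 8.26 CPM in ARC and of 1.12 and 0.717 in NTS, with a difference of -0.68 ± 0.53. Npy2r, the receptor through which the shortened form of PYY acts, had medians of 206.9 and 149.1 CPM in ARC and of 35.2 and 37.7 in NTS. Its difference was -0.44 ± 0.21 (adjusted p = 0.977). For Glp1r and Npy2r the differences with all libraries were -0.64 ± 0.51 and -0.41 ± 0.22. Ghsr, the ghrelin receptor, rose in ARC by 0.62 ± 0.16 (adjusted p = 0.0491), from a median of 55.9 to 83.7 CPM, and stood at 13.5 and 14.7 in NTS, a difference of 0.54 ± 0.24 (adjusted p = 0.895). With all libraries Ghsr did not pass in ARC (0.48, adjusted p = 0.338), and its difference was 0.46 ± 0.24. Mc3r was near 0 in NTS, at 0 to 1.27 CPM, so its difference of 0.91 ± 0.39 compares ARC with a few counts.

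Socs3, a brake on leptin and cytokine signalling, fell in ARC by 0.83 on the log2 scale (adjusted p = 0.017), from 17.4 to 23.6 CPM to 5.05 to 16.1 without overlap. In NTS its medians were 1.86 and 1.55 CPM. The difference of -0.91 ± 0.31 did not pass (adjusted p = 0.481). With all libraries Socs3 did not pass in ARC (-0.65, adjusted p = 0.217), and its difference was -0.66 ± 0.31. It belongs to a list of inflammation genes in which 11 were tested and none passed for the difference, with 7 of 11 higher in NTS in both fits.

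**Figure D5:**
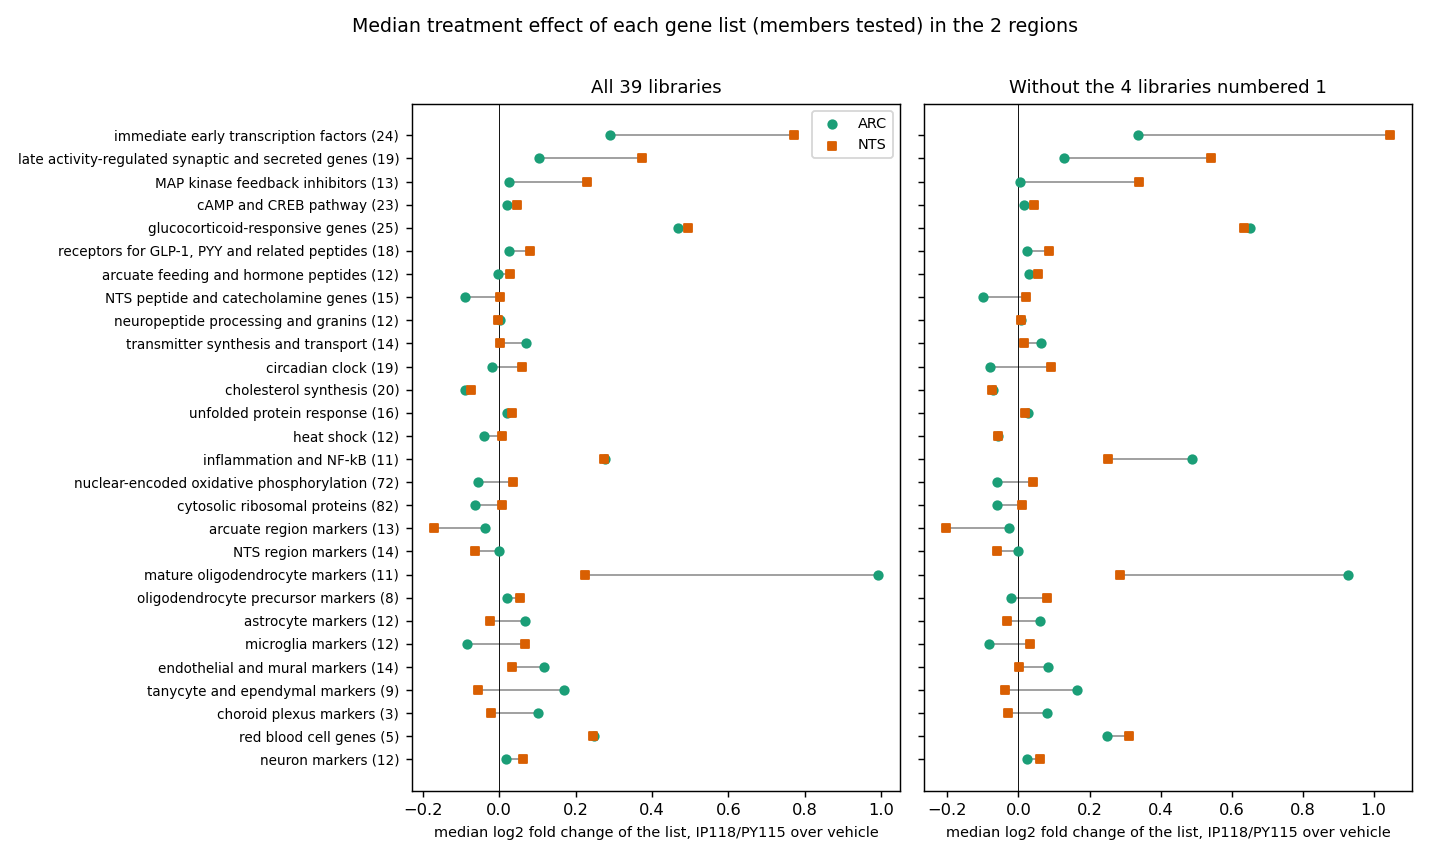
Median log2 fold change of IP118/PY115 over vehicle in ARC (circles) and NTS (squares) for each gene list, with the number of members tested in brackets; left, all 39 libraries; right, without the 4 libraries numbered 1. Immediate early transcription factors lie farther right in NTS (1.05 against 0.34 on the right panel), glucocorticoid-responsive genes nearly coincide, and mature oligodendrocyte markers lie farther right in ARC.

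Broad housekeeping groups leaned by small amounts to NTS. Of 72 nuclear-encoded oxidative phosphorylation genes 62 had the higher effect in NTS with all libraries and 64 without the 4, at median differences of -0.10 and -0.11. Of 82 cytosolic ribosomal protein genes 70 and 67 did, at a median of -0.07 in both fits. None of these genes passed for the difference, in ARC or in NTS. Microglia markers had the higher effect in NTS in 11 of 12, at medians of -0.18 and -0.17, again with none passing for the difference. Neuron markers were split, 6 of 12 on each side in both fits.

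Mature oligodendrocyte markers, the genes of myelin, went the other way. All 11 had the higher effect in ARC in both fits, at median differences of 0.75 with all libraries and 0.67 without the 4, and none passed. Mobp read 889.3 CPM in treated ARC library 2, against 23.6 to 263.1 in the other ARC libraries. The sum of the 11 markers was 6119 CPM in that library, 507.7 to 2212 in the other ARC libraries and 2132 to 9924 in NTS. Without that library and the 4 numbered 1, Mobp had a difference of -0.16 in place of 0.87, and 40 genes passed for the difference, the 29 among them. With the oligodendrocyte score as a covariate and without the 4 libraries, 47 passed, again with the 29 among them. Both fits share most or all libraries with the fit that picked the 29.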

How the data were processed

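Counts per gene in 59 libraries were deposited by the authors as 1 table, and the 39 libraries of ARC and NTS were used. Per the submitters' processing notes, reads were demultiplexed with bcl2fastq 2.20.0.422 and aligned with STAR 2.5.2a, with GRCm38 as the genome build. How reads were counted, with which strand setting and on which annotation, is not given in the sources used here, so reads of overlapping or antisense genes may not be separated. Of 21935 Ensembl IDs 21858 matched GENCODE M21, which gave symbols and coordinates, and 3 symbols belonged to more than 1 ID. Groups follow the labels, and libraries are numbered within a group in deposit order.

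In R 4.3.3, genes passing filterByExpr (minimum count 10, minimum total 15) were fitted with edgeR 4.0.16 (TMM, robust quasi-likelihood test, 1 mean per group). The difference and both single effects were contrasts of this fit, two-sided, called at an FDR under 0.05. SE is the fold change divided by the square root of F. The labels do not tie libraries to mice, so no animal term could be fitted. The fit was tested on simulated data. Intervals cover the spread between libraries, and whether PCR duplicates were removed is not given in the sources used here.

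The comparison, gene lists and naming rules were chosen with earlier results of these data known, the doubt about the libraries numbered 1 included. Genes named are the called genes of each fit (with more than 24, the 12 largest in each direction at a mean of 5 CPM or more; with fewer than 10, the 10 with the smallest p), 20 fixed genes, up to 4 members per list with the smallest p, and genes with an unadjusted p under 0.05 in both regions. Of the genes with such a p in both regions, those with opposite signs were ranked by the p of the difference. Those with the same sign had to have an unadjusted p of the difference over 0.5. Net1, Nr0b1, Fosl1, Nr4a3, Tle1, Stt3b and Tsc22d3 were chosen after their values were seen. A few called or listed genes are not reported here by name, and counts include them. Alternatives were DESeq2 1.42.0, limma 3.58.1 (voom with quality weights), other scalings, filters, thresholds and covariates, all 59 libraries, and fits without libraries. Promoter windows are from RefSeq (GRCm38.p6).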

Additional observations from a re-analysis of the deposited data

Results flagged for a closer look

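In groups of 9 or 10 libraries, 27 of 87 values tested held a library far from the rest of its group by Dixon's criterion. Chance meets it in about 1 of 20 groups only where values are independent and normally distributed. These genes share libraries and some read near 0, so 27 of 87 cannot be measured against that rate. Vehicle NTS library 1 stood high at 75.6 CPM for Fos, 39.86 for Fosb, 73.5 for Junb, 7.03 for Egr4, 37.8 for Nr4a1, 7.77 for Npas4, 23.8 for Nptx2, 101.9 for Gcg, 61.3 for Fkbp5, 25.7 for Zbtb16 and 56.9 for Cdkn1a, and at 5.57 on the glucocorticoid score. Treated NTS library 1 stood low at 16.4 CPM for Junb, 8.54 for Nr4a1 and 9.05 for Cdkn1a, and at 4.54 on the score. Vehicle ARC library 1 stood high at 162.7 CPM for Fkbp5, 50.45 for Zbtb16 and 15.2 for Cdkn1a, and treated ARC library 1 low at 4.16 on the score. Other libraries apart from their group were treated ARC 2 at 889.3 CPM for Mobp and 6119 for the sum of oligodendrocyte markers, treated ARC 7 at 10.9 for Npas4 and treated ARC 3 at 32.2 for the gene Arc. Vehicle ARC 6 read 996.6 CPM for Agrp, treated ARC 6 391.3 for Cartpt and vehicle ARC 5 0.442 for Gcg.

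The treatment effect of 29 genes differed between ARC and NTS by the test of the difference itself, without the 4 libraries numbered 1, and 28 of these are listed. On the log2 scale of ARC minus NTS, the difference was -3.72 for Fosb, -2.77 for Rrad, -2.59 for Nr0b1, -2.38 for Egr4, -1.81 for Fosl2, -1.61 for Gpr3, -1.49 for Gm13889, -1.47 for Junb and -1.36 for Nptx2. It was -1.35 for Nr4a1, -1.26 for Tent5a, -1.11 for Tnfrsf12a, -0.98 for Dusp14, -0.75 for Phlda1, -0.74 for Lzts1, -0.74 for Arid5b, -0.67 for Net1 and -0.55 for Midn. Genes with the higher effect in ARC had differences of 1.56 for Setdb2, 1.32 for Prss35, 0.94 for Spata13, 0.90 for Galnt15, 0.71 for Wee1, 0.69 for Sertm1, 0.63 for Fam43a, 0.57 for Fam189a2, 0.50 for Myrip and 0.49 for Agfg2.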

How the results depend on the processing

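With all 39 libraries, 0 genes passed for the difference, 10 in ARC and 33 in NTS. Without the 4 libraries numbered 1 these counts were 29, 163 and 164. They were 4, 62 and 60 in DESeq2, and 0, 36 and 82 in limma-voom. An FDR of 0.1 gave 0, 44 and 55, and the oligodendrocyte covariate 2 (Arid5b and Sertm1), 39 and 45. The ARC count was 22 with library totals alone and with all 59 libraries, 6 with log10 total as a covariate, 16 without treated ARC library 2 and 0 without vehicle ARC libraries 8 and 9. In the titles vehicle ARC 8 and 9 carry the numbers 5556 and 5557, and the other ARC libraries 5509 to 5528. NTS libraries carry 5726 to 5745, so the numbers also follow region. The labels do not say what the numbers stand for, and their effect was not tested. Added after seeing the data, and also without the 4 libraries, were fits without treated ARC library 2 (40, 168 and 181), without vehicle ARC 8 and 9 (28, 156 and 163, with 25 of the 29 called), with the oligodendrocyte covariate (47, 219 and 215), with log10 total (31, 176 and 157), with library totals alone (32, 168 and 154) and with RLE factors (31, 163 and 164). Leaving out 1 library at a time, in 39 fits, gave 0 to 8 genes for the difference, 0 to 104 in ARC and 14 to 91 in NTS. The highest counts came without vehicle NTS 1, vehicle ARC 1 and treated NTS 1, and the lowest without vehicle ARC 2 or 9 in ARC and vehicle NTS 2 in NTS. Without vehicle NTS 1 the 8 were Fosb, Fosl2, Gm13889, Gpr3, Midn, Prss35, Rrad and Sertm1, and without vehicle ARC 1 only Setdb2 passed.

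Of the values of 45 named genes under these settings 17 changed sign. The difference for Pomc, 0.02 with all libraries, was -0.00191 in DESeq2, -0.00607 without the library of low total, and -0.071 to 0.0947 in the fits without 1 library. That of Mobp was -0.16 without the 4 libraries and treated ARC library 2. All 29 genes kept the sign of their difference in every setting run. They were picked on most of the same libraries, so this agreement was largely built in. Of the immediate early factors 20 to 22 had the higher effect in NTS among the 22 to 25 tested in each setting other than those leaving out 1 library at a time, which were not counted for this list. No paired analysis was possible because the labels do not tie a library of one region to a library of the other. Counts limit genes near 0 in a region, such as Nr0b1, Mc3r and Gcg.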

Other observations

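Slc30a3, a zinc transporter of synaptic vesicles, was the 1 gene of the 4 called by DESeq2 for the difference with all libraries that was not among the 29. With all libraries 9 genes had the 2 regions moving apart at an unadjusted p under 0.05 in each. Among them were Gab2, a docking protein of receptor signalling, Dpp3, a peptidase, and Ube2g2, an enzyme of protein degradation. Their differences with all libraries were -0.38 ± 0.11 for Gab2, -0.28 ± 0.08 for Dpp3 and -0.30 ± 0.10 for Ube2g2, and none passed in either fit. As they were picked by opposite signs and by the p of the difference, the size of these differences was largely built in. Prr5, a partner of the kinase complex mTORC2, rose in NTS with all libraries (adjusted p = 0.0383), and its difference of -0.52 ± 0.14 did not pass.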
